A study of Mus musculus with 16 samples.

Results

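The genes described here are 10 heat shock and endoplasmic reticulum (ER) stress genes of mouse hippocampus, chosen by symbol from 18193 genes with a probe set of their own on the array. The 5 cytosolic chaperone genes are Hspa1a, Hspa1b, Hspb1, Hspb8 and Dnajb1, and the 5 genes of the unfolded protein response are Hspa5, Hsp90b1, Ddit3, Atf4 and Xbp1. They have 25 probe sets between them, of which 24 passed the filter on dim signal and 1 of Atf4 did not, so that every gene had a tested probe set.

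When proteins misfold in the cytosol, the transcription factor HSF1 binds heat shock elements and switches on HSP70, HSP40 and small heat shock proteins, which hold or refold their clients. When they misfold in the ER, the sensors IRE1, ATF6 and PERK start the unfolded protein response: ATF6 and spliced XBP1 switch on ER chaperones such as Hspa5 and Hsp90b1 through ER stress elements, while PERK raises translation of ATF4, which acts on Ddit3. ATF4 and XBP1 are switched largely by translation and by splicing of their mRNA, steps that an array of total transcript signal does not read.

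The study used Affymetrix Mouse Genome 430 2.0 arrays to follow hippocampal transcripts in mice with too much or too little CREB function. VP16-CREB carries the strong activation domain of VP16, a viral protein, and so works without upstream signals. A-CREB is a dominant negative partner that prevents CREB from binding DNA. Each of the 16 arrays held hippocampal RNA pooled from 3 to 4 mice alike in age, sex and genotype, all labelled as strain C57BL/6J. Pools are the replicates, and since the labels do not say that the pools of a group came from separate litters, p-values measure the spread between pools, which may be partly technical.

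In the VP16-CREB cohorts (genotype tetO-VP16-CREB C57BL/6J) transgenic and WT littermates alike were raised on doxycycline (dox), which keeps the transgene silent. One cohort, 6 weeks old, had been off dox for 3 weeks (3 transgenic and 3 control pools) and another, 3 weeks old, for 1 week (2 and 2 pools). The A-CREB cohort (genotype TetO-A-CREB-95 C57BL6 F1/J, with WT littermates) was 6 weeks old and raised without dox (3 and 3 pools). The design text calls the mice bitransgenic and the labels do not name the driver. In the published lines it is the CaMKIIα promoter, which directs expression to forebrain principal neurons. The early A-CREB arrays were not analysed here.

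Values are MAS5 intensities in arbitrary units, with a trimmed mean of 500 on every array as deposited, and intensities of different probe sets cannot be compared as levels. Array medians were 118.9 to 129.3 in the cohort at 3 weeks off dox and 75.0 to 93.2 on the other 10 arrays, so comparisons are made within a cohort. Log2 values correlated at 0.959 to 0.975 within groups and 0.948 to 0.971 between the groups of a cohort. Replicate 1 of both A-CREB cohort groups had the low Xist signal of male pools. Control replicate 2 of that cohort had high Xist (3611) but more signal of Y-linked genes than the other pools of high Xist. It read 86.51 for Eif2s3y, 53.01 for Kdm5d and 52.04 for Uty. Whether this pool held both sexes was not tested. As a check on RNA quality, the ratio of 3′ to 5′ control signal was highest in A-CREB transgenic replicate 3. It was 2.48 for actin, against 1.36 to 2.00 on the other arrays, and 0.98 for Gapdh, against 0.72 to 0.84. A-CREB transgenic replicate 3 gave the lowest A-CREB reading of Hspb1 at 1422943_a_at (380.6). The number of arrays limits the precision. Each log2 difference is transgenic minus control of log2(intensity + 10) and is given with its standard error (SE), and folds are of the intensity plus 10. A probe set is called when limma's adjusted p, over 27044 probe sets, is under 0.05.

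The promoters of 5 members are shown because they hold a heat shock element or an ER stress element. Those of Hspb8, Dnajb1, Ddit3, Atf4 and Xbp1 had neither in their windows, so these elements do not divide the 2 arms. Each line gives the 250 bases before the annotated start, 5′ to 3′ on the gene's strand, from RefSeq on GRCm38.p6. Capitals mark heat shock elements (GAANNTTC) in the cytosolic genes and ER stress elements (CCAAT and CCACG with 9 bases between them, in either orientation) in the ER genes. The windows are chr17:34972157-34972406 (minus strand) for Hspa1a, chr17:34959239-34959488 (minus) for Hspa1b, chr5:135887669-135887918 (plus) for Hspb1, chr2:34771840-34772089 (plus) for Hspa5 and chr10:86705445-86705694 (minus) for Hsp90b1.
Hspa1a: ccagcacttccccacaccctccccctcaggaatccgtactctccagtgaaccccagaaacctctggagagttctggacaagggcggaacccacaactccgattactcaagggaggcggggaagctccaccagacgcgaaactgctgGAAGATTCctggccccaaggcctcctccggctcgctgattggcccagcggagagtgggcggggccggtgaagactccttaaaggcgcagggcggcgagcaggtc
Hspa1b: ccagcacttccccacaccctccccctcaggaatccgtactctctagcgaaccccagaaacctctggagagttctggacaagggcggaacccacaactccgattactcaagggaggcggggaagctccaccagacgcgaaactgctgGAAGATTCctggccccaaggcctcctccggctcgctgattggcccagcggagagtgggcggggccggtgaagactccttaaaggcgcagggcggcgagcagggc
Hspb1: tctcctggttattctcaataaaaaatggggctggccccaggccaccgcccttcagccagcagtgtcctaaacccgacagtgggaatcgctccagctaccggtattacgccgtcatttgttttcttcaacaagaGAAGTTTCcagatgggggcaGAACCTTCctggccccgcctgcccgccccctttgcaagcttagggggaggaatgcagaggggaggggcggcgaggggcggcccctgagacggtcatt
Hspa5: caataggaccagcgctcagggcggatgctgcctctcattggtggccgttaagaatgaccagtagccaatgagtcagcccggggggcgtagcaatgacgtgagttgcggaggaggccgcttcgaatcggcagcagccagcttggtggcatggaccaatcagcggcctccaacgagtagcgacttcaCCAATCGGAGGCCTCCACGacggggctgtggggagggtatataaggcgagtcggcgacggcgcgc
Hsp90b1: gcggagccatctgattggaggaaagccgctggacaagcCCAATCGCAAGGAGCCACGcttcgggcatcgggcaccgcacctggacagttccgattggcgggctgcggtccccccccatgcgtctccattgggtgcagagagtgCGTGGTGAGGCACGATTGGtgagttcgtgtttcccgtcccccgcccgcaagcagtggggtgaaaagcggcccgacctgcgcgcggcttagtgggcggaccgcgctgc

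The heat shock element stood in 3 member promoters, those of Hspa1a, Hspa1b and Hspb1, and in 6.69% of all 32851 promoter windows. The ER stress element stood in those of Hspa5, with 1 match, and Hsp90b1, with 2, and in 0.11% of all windows. The Hspa1a and Hspa1b windows shared 247 of 250 bases (98.8%), and each had its heat shock element at 104 to 97 bases before the start (-104 to -97). The full cAMP response element to which CREB binds (TGACGTCA) was in none of the 10 windows and in 1.55% of all. Its shorter form (TGACG, which a full element also holds) was in 4, those of Hspb1, Dnajb1, Hspa5 and Atf4, against 17.77% of all windows. The other heat shock form (TTCNNGAA, 7.17% of windows), the unfolded protein response element (TGACGTGG, 0.56%) and the ATF4 element (TGATGNAAT, 0.82%) had no match in the 10, while the NF-Y box (CCAAT, also the start of the ER stress element) was in 7 (33.85% of windows). All motifs were searched on both strands. These are matches of letters within a short window and not sites of binding.

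**Figure D1:**
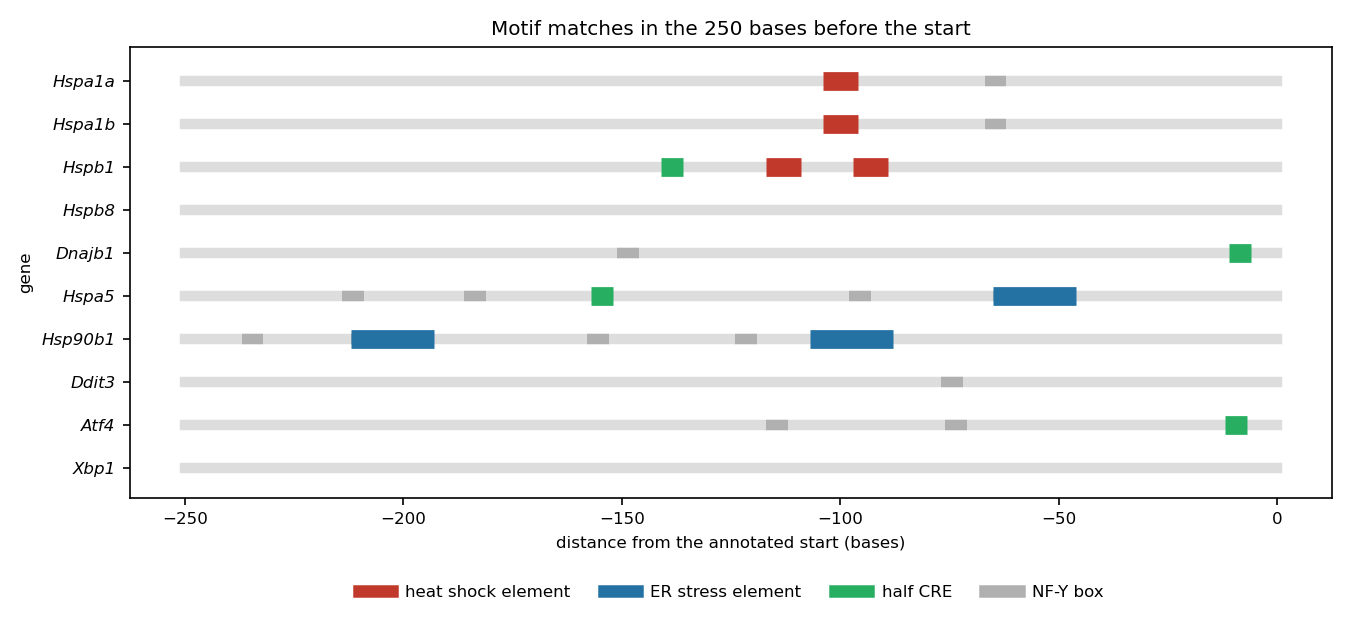
Motif matches in the 250 bases before the annotated start of the 10 genes, with distance from the start in bases on the horizontal axis and 1 row per gene. Heat shock elements (red) lie only in rows of Hspa1a, Hspa1b and Hspb1, ER stress elements (blue) only in rows of Hspa5 and Hsp90b1; short forms of the cAMP response element are green and NF-Y boxes grey.

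At 3 weeks off dox, VP16-CREB hippocampus had more Hspb1, Hspb8, Hspa1b and Ddit3 signal than littermates, with folds of 1.51 to 2.43 in the called probe sets. Of the 3 Hspa1b probe sets 2 were called, and that of highest mean was not (limma adjusted p = 0.493). Hspa1a, Dnajb1, Hspa5, Hsp90b1, Atf4 and Xbp1 passed no test over all probe sets. Probe sets of Hspa1a and Hspa1b may share signal, so the split between these 2 genes is uncertain. Of the 24 member probe sets, 6 were called higher and 0 lower, where 3.28% of all tested probe sets were called higher and 0.651% lower. The cytosolic chaperones had 5 called of 11 probe sets and a median log2 difference of 0.63, and the genes of the unfolded protein response had 1 of 12 and a median of 0.09, leaving out the dim Ddit3 probe set 1443897_at, which passed the filter only through these VP16-CREB pools. The median over all probe sets was -0.01. Counted once per gene at the probe set of highest mean, 2 of the 5 cytosolic genes and 1 of the 5 ER genes were called. All 11 cytosolic probe sets had a positive difference, as had 8 of those 12 of the ER arm and 48.0% of all probe sets. In 8 cytosolic probe sets and 3 of those 12 in the ER arm every transgenic pool lay above every control pool, as in 14.9% of all probe sets. The difference between the arms was not tested, since genes are not replicates. The count of 6 became 4 without transgenic replicate 1, 3 without control replicate 1, control replicate 2 or transgenic replicate 2, 1 without control replicate 3 and 0 without transgenic replicate 3. The 3 without control replicate 1 include a gained call, that of the dim Ddit3 1443897_at (limma adjusted p = 0.0435). Of the 6, only the 2 Hspa1b probe sets kept their calls there.

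**Figure D2:**
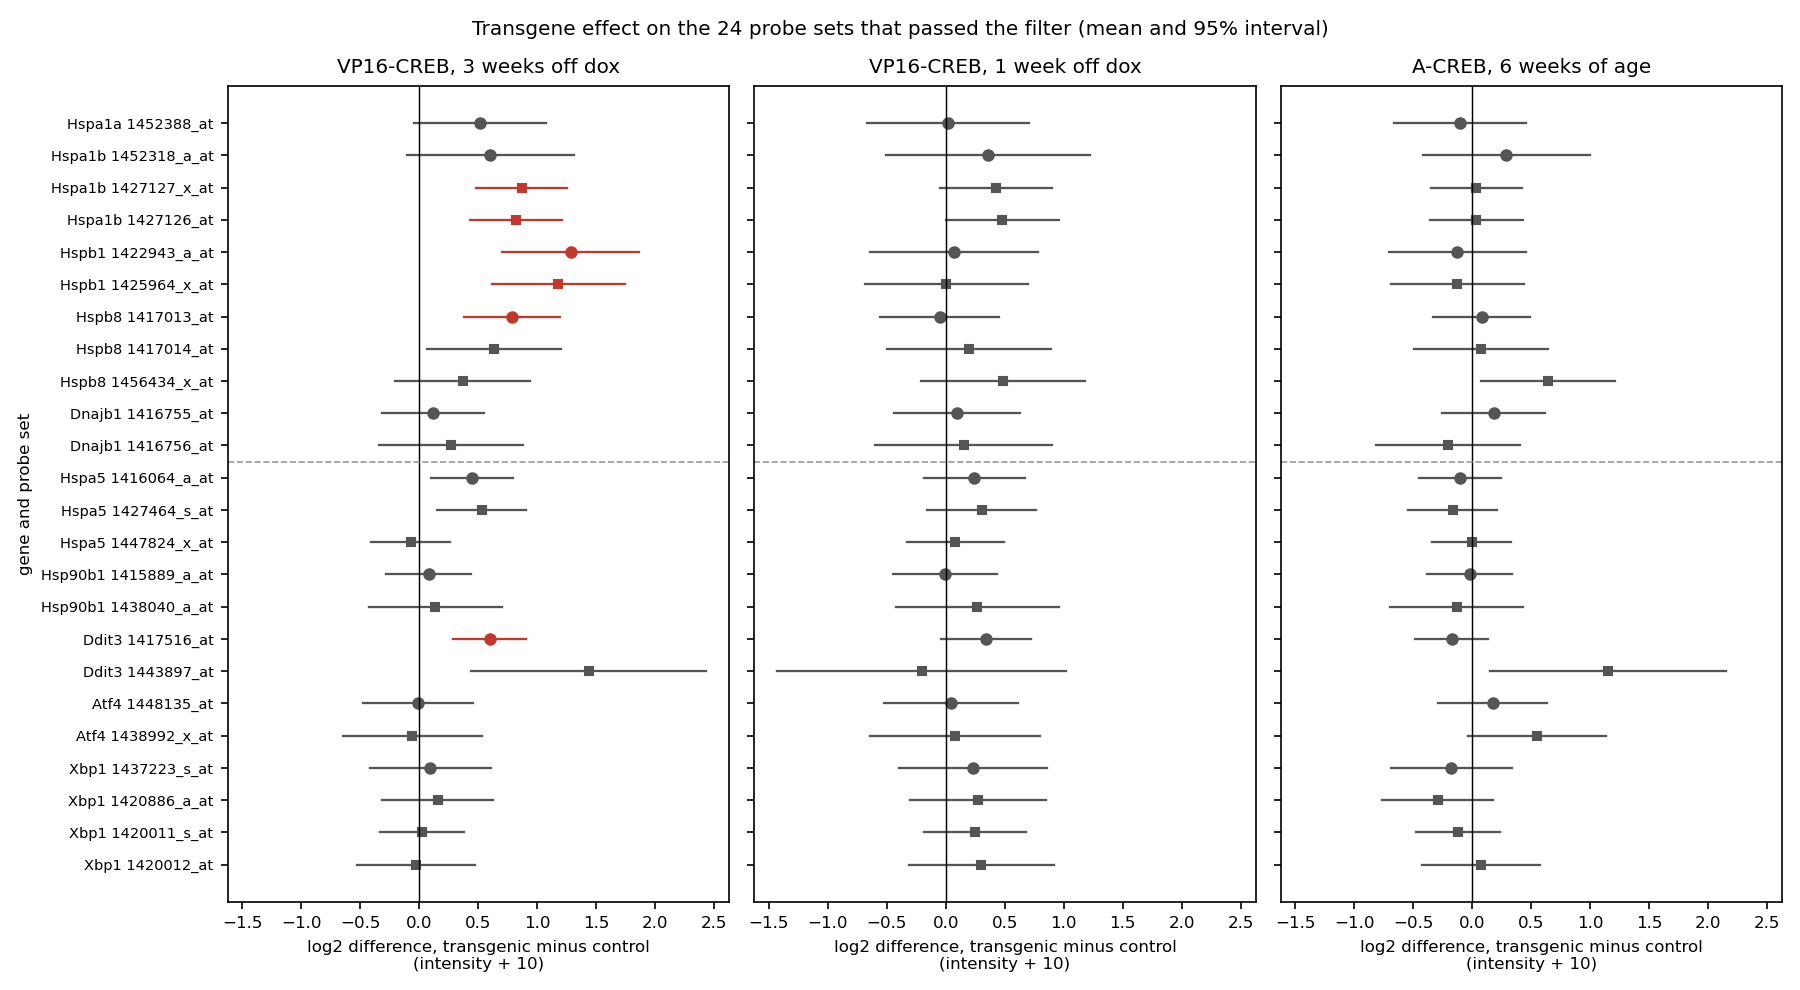
Log2 difference (transgenic minus control, intensity + 10) of the 24 tested probe sets in each comparison, 1 row per probe set, with the 95% interval from limma as a line; circles are the probe set that stands for its gene, squares the others, red marks an adjusted p under 0.05 and the dashed line parts the cytosolic genes (above) from the unfolded protein response. Red points appear in the panel at 3 weeks off dox and in neither of the others.

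Hspb1 (chromosome 5, 135887919-135889563) encodes HSP27, a small heat shock protein that holds unfolding proteins without using ATP and is a known marker of reactive astrocytes. Its probe set 1422943_a_at read 567.6, 697 and 582.7 in the control pools at 3 weeks off dox and 1358, 1292 and 1947 in the VP16-CREB pools. The lowest transgenic pool was thus well above the highest control pool. The log2 difference was 1.28 (SE 0.27), a 2.43-fold rise, with adjusted p = 0.0143 by limma. The other Hspb1 probe set rose by 1.18 (SE 0.26, adjusted p = 0.0209), from 294.7 to 417.4 in controls to 695.3 to 968.3. The first call was lost by limma without control replicate 1 (adjusted p = 0.0659), control replicate 3 (0.0592) or transgenic replicate 3 (0.0892). The second was lost without control replicates 1 or 3 or transgenic replicates 1 or 3 (adjusted p = 0.0757, 0.0968, 0.0535 and 0.115).

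In the younger cohort, 1 week off dox, Hspb1 read 846.8 and 612.1 in controls and 857.5 and 664.6 in VP16-CREB pools, which overlap, with a log2 difference of 0.07 (95% interval -0.64 to 0.78). The A-CREB cohort gave 536.3, 818.1 and 648.4 in controls and 756.1, 757.7 and 380.6 in transgenic pools, again overlapping, with a difference of -0.13 (-0.71 to 0.46). The effect at 3 weeks exceeded that at 1 week by 1.22 (SE 0.43), which did not pass over all probe sets (limma adjusted p = 0.766). It exceeded the A-CREB effect by 1.41 (SE 0.38), which did not pass either (adjusted p = 0.145).

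Hspb8 (chromosome 5, 116408491-116422864) encodes HSP22, a small heat shock protein that works with BAG3 to send misfolded proteins to autophagy. Its probe set of highest mean, 1417013_at, read 300.9, 356.1 and 323.2 in controls and 451.3, 604 and 674.5 in VP16-CREB pools at 3 weeks off dox. The groups did not overlap, and the rise was 0.78 (SE 0.19; 1.72-fold; limma adjusted p = 0.0339). A further probe set, 1417014_at, also had no overlap (213.1 to 218.9 against 301.8 to 368) but did not pass (0.63, SE 0.26, adjusted p = 0.295). The remaining one, 1456434_x_at, overlapped (199.5 to 416.5 against 288.1 to 413.5) and correlated poorly with the others across the 16 arrays after centring on each cohort (r = 0.276 and 0.117, a description over arrays that share groups and scaling).

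The Hspb8 controls differed between cohorts, whose array medians also differed. At 1 week off dox they read 650.3 and 464 and in the A-CREB cohort 462.6, 589 and 667.2, all above the 3 controls of the cohort at 3 weeks off dox. Of the VP16-CREB pools at 3 weeks, 1 lay below the range of those other controls, 1 within it and 1 above. VP16-CREB pools at 1 week read 589.7 and 475.3 (log2 difference -0.05) and A-CREB pools 629, 585 and 583.9 (0.08), both overlapping their littermates. Without any 1 of control replicates 1, 2 or 3 or transgenic replicates 2 or 3, the call at 3 weeks was lost (limma adjusted p = 0.143, 0.0679, 0.107, 0.131 and 0.178), as it was with arrays centred on their medians (0.0951).

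Hspa1a and Hspa1b (chromosome 17, 34969359-34972156 and 34956429-34959238) are neighbouring copies that encode the inducible HSP70, the main heat shock chaperone. Their transcripts are nearly identical, so the 4 probe sets assigned to them may share signal and the split between the copies is uncertain. The Hspa1b probe set 1427126_at read 706.2, 647.3 and 577.8 in controls and 1091, 1146 and 1189 in VP16-CREB pools at 3 weeks off dox. The pools did not overlap and the rise was 0.82 (SE 0.18; 1.77-fold; limma adjusted p = 0.02). Probe set 1427127_x_at read 1077, 737.4 and 928.7 against 1426, 1642 and 1943, again without overlap. It rose by 0.87 (SE 0.18; 1.82-fold; adjusted p = 0.0131).

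The other 2 HSP70 probe sets had positive differences that did not pass. The Hspa1b probe set of highest mean, 1452318_a_at, read 1670, 900.4 and 1375 in controls and 1277, 2321 and 2445 in VP16-CREB pools, with a difference of 0.60 (SE 0.33, limma adjusted p = 0.493). Hspa1a (1452388_at) read 710.3, 676.6 and 622.2 against 656.3, 1253 and 1074 (0.52, SE 0.26, adjusted p = 0.432). In both, transgenic replicate 1 stayed among the controls while replicates 2 and 3 lay above them all.

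At 1 week off dox the same 2 Hspa1b probe sets had no overlap between pools. Probe set 1427126_at read 597.3 and 631.2 in controls and 726 and 1016 in VP16-CREB pools (0.48, SE 0.22), and 1427127_x_at read 1046 and 919.6 against 1192 and 1462 (0.43, SE 0.22). Neither passed limma's test (adjusted p = 0.95 and 1). In the A-CREB cohort 1427126_at read 589.5, 737.2 and 826.4 in controls and 915.5, 646 and 655.1 in transgenic pools, which overlap (0.04, 95% interval -0.36 to 0.43). The call of 1427126_at at 3 weeks was lost without control replicates 2 or 3 or transgenic replicates 2 or 3 (limma adjusted p = 0.0657, 0.0947, 0.0744 and 0.093), and that of 1427127_x_at without control replicate 2 or transgenic replicate 3 (0.0701 and 0.0846).

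Dnajb1 (chromosome 8, 83608175-83612653) encodes the HSP40 cochaperone that delivers clients to HSP70 and is a classic heat shock target. Its probe set of highest mean, 1416755_at, read 1876, 1869 and 1803 in controls and 1885, 2133 and 1998 in VP16-CREB pools at 3 weeks off dox. Every transgenic pool was above every control pool, though the lowest (1885) barely passed the highest control (1876), and the difference of 0.12 (95% interval -0.32 to 0.55) did not pass (limma adjusted p = 0.914). Its differences at 1 week and in the A-CREB cohort were 0.10 and 0.18, with pools that overlap. The other Dnajb1 probe set, 1416756_at, read 967.6, 915.4 and 998.5 in controls and 1001, 1293 and 1198 in VP16-CREB pools at 3 weeks. These do not overlap either, and the difference of 0.27 (SE 0.28, limma adjusted p = 0.816) did not pass; at 1 week it was 0.15 and in the A-CREB cohort -0.20 (SE 0.28), the opposite sign to that of 1416755_at. At 1416755_at the control pools at 3 weeks off dox again lay below all other controls, which read 2622 to 4315.

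**Figure D3:**
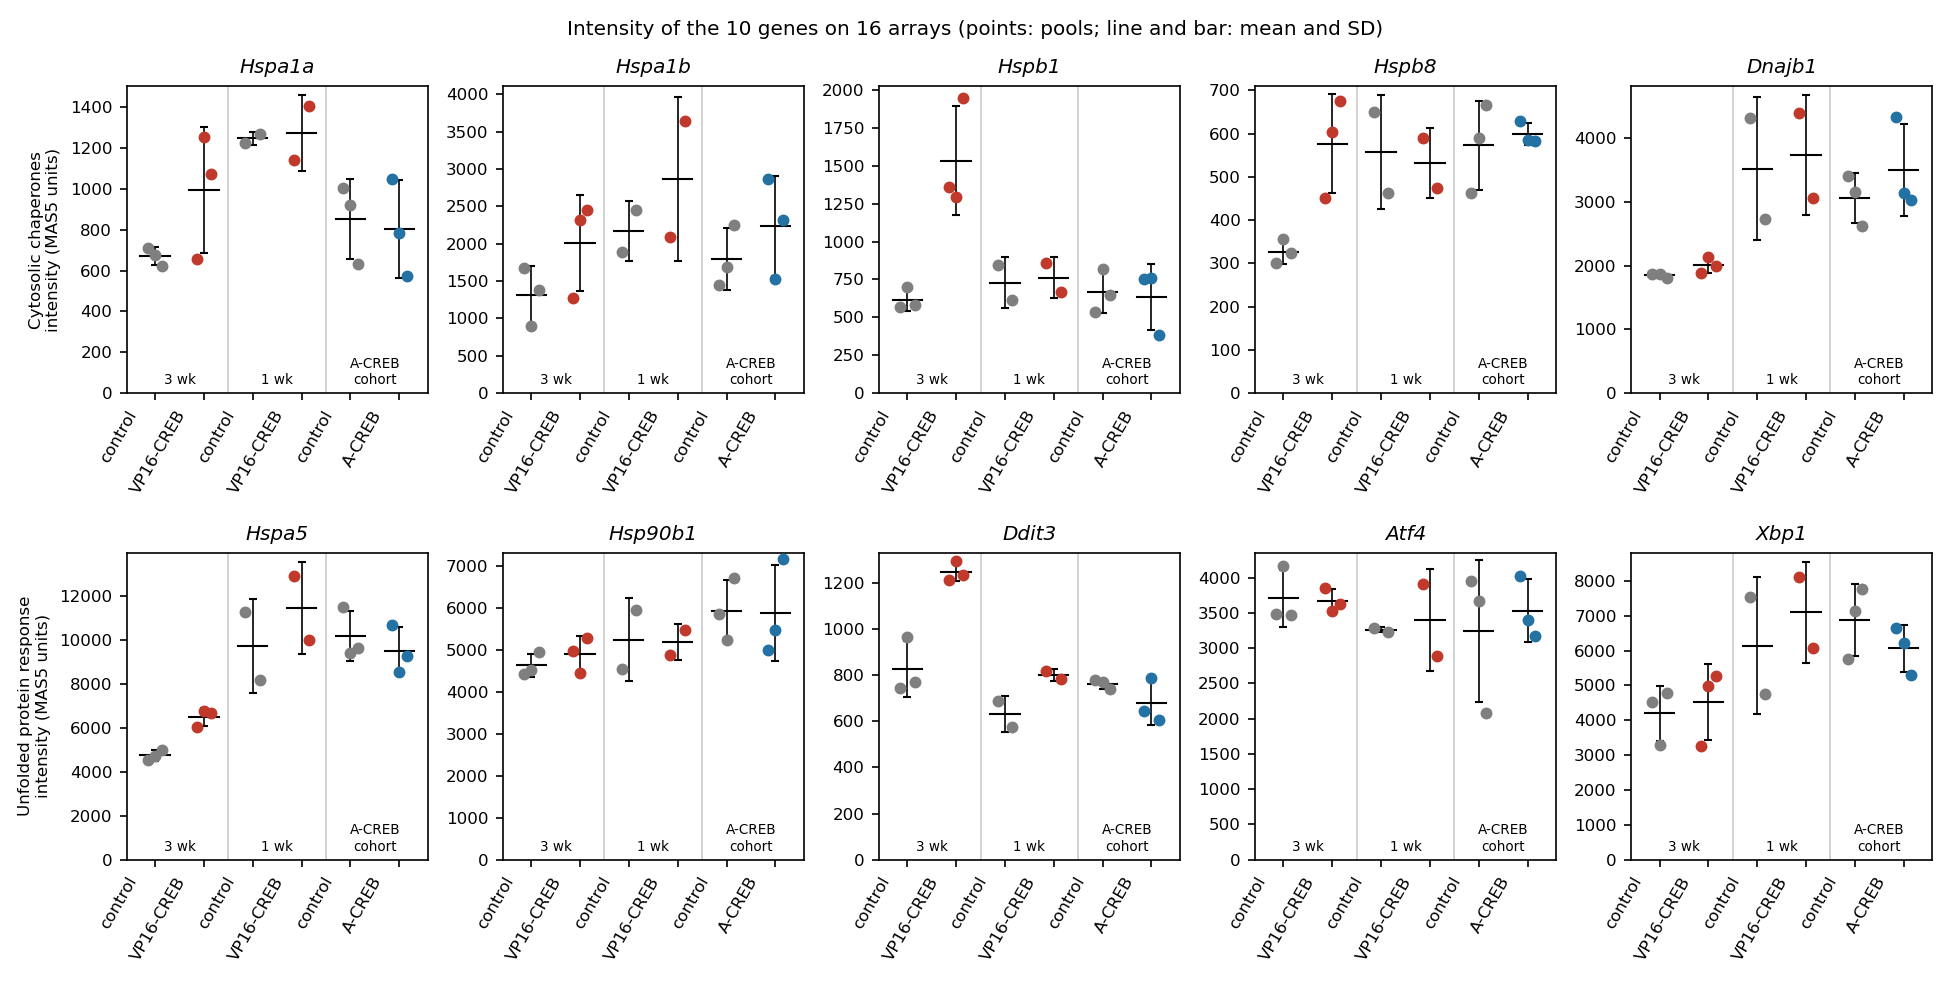
MAS5 intensity (linear axis from 0) of the 10 genes on all 16 arrays, each gene at its probe set of highest mean, with points for pools and a line and bar for the group mean and SD (n = 3, or 2 at 1 week off dox); grey is control, red VP16-CREB and blue A-CREB. Hspb1, Hspb8, Hspa5 and Ddit3 show 3 VP16-CREB pools clear of the 3 controls at 3 weeks off dox, and the Hspa5, Hspb8 and Dnajb1 controls of that cohort sit below those of the other cohorts.

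In the ER arm, Ddit3 (chromosome 10, 127290793-127296291) was the member called. It encodes CHOP, the transcription factor through which prolonged ER stress can lead to cell death. Probe set 1417516_at read 745.3, 967.2 and 770.8 in controls and 1215, 1295 and 1235 in VP16-CREB pools at 3 weeks off dox. The pools did not overlap, and the rise was 0.60 (SE 0.14; 1.51-fold; limma adjusted p = 0.0332). A dim further probe set, 1443897_at, read 87.69, 32.04 and 21.71 against 134.9, 107 and 141.4 (1.43, SE 0.46, adjusted p = 0.131) and exceeded the median of all values (99.1) only in those 3 VP16-CREB pools, so it passed the filter through the group where it was high.

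After 1 week off dox Ddit3 read 688.4 and 575.8 in controls and 818.5 and 783.2 in VP16-CREB pools at 1417516_at. These do not overlap, but the difference of 0.34 (SE 0.18) did not pass (limma adjusted p = 1). The A-CREB cohort read 781.3, 768.7 and 739.9 in controls and 645.4, 786.1 and 607.5 in transgenic pools, a difference of -0.17 (SE 0.14) with overlap. The VP16-CREB effect at 3 weeks exceeded the A-CREB effect by 0.77 (SE 0.20, adjusted p = 0.133). The call at 3 weeks was lost with arrays centred on their medians (adjusted p = 0.0877), and without control replicates 1 or 3 or any transgenic replicate (adjusted p = 0.162, 0.137, 0.0744, 0.128 and 0.114).

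Hspa5 (chromosome 2, 34772090-34776529) encodes BiP, the HSP70 of the ER lumen and the standard readout of the unfolded protein response. It read 4519, 4737 and 5013 in controls and 6042, 6760 and 6684 in VP16-CREB pools at 3 weeks off dox. The pools were clear of each other, yet the difference of 0.45 (SE 0.16; 1.36-fold) did not pass over all probe sets (limma adjusted p = 0.192). Probe set 1427464_s_at gave a like picture (2649, 2264 and 2932 against 3149, 3827 and 4388; 0.53, SE 0.18, adjusted p = 0.145), and the dimmer 1447824_x_at did not (-0.07, SE 0.16).

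The Hspa5 controls of this cohort were far below the others. The 5 control pools of the other cohorts read 8197 to 11490, so even the VP16-CREB pools at 3 weeks off dox read lower than any of them. Array medians also differed between this cohort and the others, and their part in these readings was not tested. VP16-CREB pools at 1 week read 12920 and 9987 against 11250 and 8197 in littermates (0.24, SE 0.20), and A-CREB pools 10670, 8526 and 9263 against 11490, 9424 and 9622 (-0.10, SE 0.16). Control pools of the cohort at 3 weeks off dox lay below all other controls in 5 of the 24 member probe sets (3 of Hspa5, 1 each of Hspb8 and Dnajb1) and in 9.61% of all probe sets, and above them in 1, against 19.3%. The A-CREB cohort was of the same age as this one, 6 weeks, and its Hspa5 controls were also all above these. Cohort, dox history and the difference in array medians cannot be told apart in this contrast, on which no test was run.

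The remaining ER members passed no test. Hsp90b1 (chromosome 10, 86690841-86705444), the HSP90 of the ER, read 4634 ± 276 (SD, n = 3) in controls and 4906 ± 420 (SD, n = 3) in VP16-CREB pools at 3 weeks off dox, a difference of 0.08 (95% interval -0.28 to 0.44). The other Hsp90b1 probe set, 1438040_a_at, differed by 0.14 (SE 0.26, limma adjusted p = 0.922), with overlapping pools (1656 to 2222 against 1982 to 2338), and by 0.27 at 1 week and -0.13 in the A-CREB cohort. The 2 probe sets did not follow each other across arrays (r = -0.363 over 16 arrays centred by cohort). Hsp90b1 carries 2 ER stress elements in the window printed above and Hspa5 carries 1. Atf4 (chromosome 15, 80255184-80257545), the transcription factor of the PERK branch, read 3706 ± 401 (SD, n = 3) against 3672 ± 167 (SD, n = 3), a difference of -0.01 (-0.47 to 0.46). Xbp1 (chromosome 11, 5520641-5525993), the transcription factor of the IRE1 branch, read 4194 ± 794 (SD, n = 3) against 4513 ± 1092 (SD, n = 3), a difference of 0.09 (-0.42 to 0.60). Over their 6 tested probe sets Atf4 and Xbp1 ranged from -0.06 to 0.15, with limma adjusted p from 0.885 to 0.994.

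At 1 week off dox 0 of the 24 member probe sets were called by limma, against 0.237% of all probe sets (0.218% higher and 0.0185% lower), and 0 had an unadjusted p under 0.05, against 5.27%. In 6 of them the VP16-CREB pools lay above both controls, as in 15.7% of all probe sets. The medians were 0.15 for the cytosolic and 0.24 for the ER probe sets, and 0.02 over all. In the A-CREB cohort 0 of 24 were called by limma (0% of all probe sets), 2 had an unadjusted p under 0.05 (4.33% of all), 1 had every transgenic pool above the controls (3.54% of all), and the medians were 0.04 and -0.10. Those 2 were Hspb8 1456434_x_at (0.64, SE 0.27), where 140.8, 131 and 185.2 in controls stood against 261.4, 190.9 and 279.2, and the dim Ddit3 1443897_at, which read 47.08 or less on all arrays of that cohort.

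As a direct test of whether the VP16-CREB effect differed, 0 of the 24 passed for 3 weeks against 1 week (0.0037% of all probe sets), with 4 at an unadjusted p under 0.05 (4.99% of all): both Hspb1, 1 of Hspb8 and the dim Ddit3 1443897_at. Without that last probe set, which passed the filter only through the VP16-CREB pools at 3 weeks, the number is 3. For VP16-CREB at 3 weeks against A-CREB 0 of 24 passed by limma (0.887% of all, 0.828% higher), with 8 at an unadjusted p under 0.05 (8.69% of all): both Hspb1, 2 of Hspa1b, 1 of Hspb8, 2 of Hspa5 and 1 of Ddit3. The sizes ranged from 0.55 in Hspa5 to 1.41 in Hspb1. No member effect was therefore shown to be particular to a time or a transgene.

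Among the other small heat shock proteins, Hspb6 and Hspb3 rose, with larger log2 differences than any member probe set. Hspb6 encodes HSP20 and Hspb3 a small heat shock protein best known from muscle. At 3 weeks off dox Hspb6 read 187.6, 245.3 and 191.8 in controls and 778, 1066 and 840.9 in VP16-CREB pools, far apart, a 4.14-fold rise of 2.05 (SE 0.26, limma adjusted p = 0.000283). Hspb3 read 94.2, 90.78 and 97.3 against 358.1, 294 and 381.6, a 3.39-fold rise of 1.76 (SE 0.20, adjusted p = 0.000143). With Hspb1 and Hspb8, 4 of the 6 small heat shock protein genes tested rose, where 3.28% of all probe sets were called higher. The grouping was made after their values were seen, and single left-out pools ended the Hspb1 and Hspb8 calls, as given above. Cryab, which encodes alphaB-crystallin, had no overlap between pools but did not pass (0.32, SE 0.18, adjusted p = 0.508), and Hspb2 overlapped (0.33, SE 0.23).

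In the cohort at 1 week off dox the pools of Hspb3 and Hspb6 did not overlap, while those of Hspb1 and of Hspb8 at 1417013_at did. Hspb3 read 59.46 and 82.58 in controls and 147.4 and 223.2 in VP16-CREB pools (1.26, SE 0.25, limma adjusted p = 0.0645), and Hspb6 343.9 and 189 against 741.5 and 627.6 (1.38, SE 0.32, adjusted p = 0.134). Neither passed. In the A-CREB cohort Hspb3 pools lay below every littermate pool (91.87, 152.3 and 99.53 in controls against 88.59, 86.27 and 74.61; -0.39, SE 0.20, adjusted p = 1) and Hspb6 differed by -0.02. The contrast of VP16-CREB at 3 weeks with A-CREB passed for both, at 2.15 (SE 0.29, adjusted p = 0.00278) for Hspb3 and 2.07 (SE 0.36, adjusted p = 0.0146) for Hspb6; the second was lost without transgenic replicate 2 at 3 weeks (adjusted p = 0.0557).

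**Figure D4:**
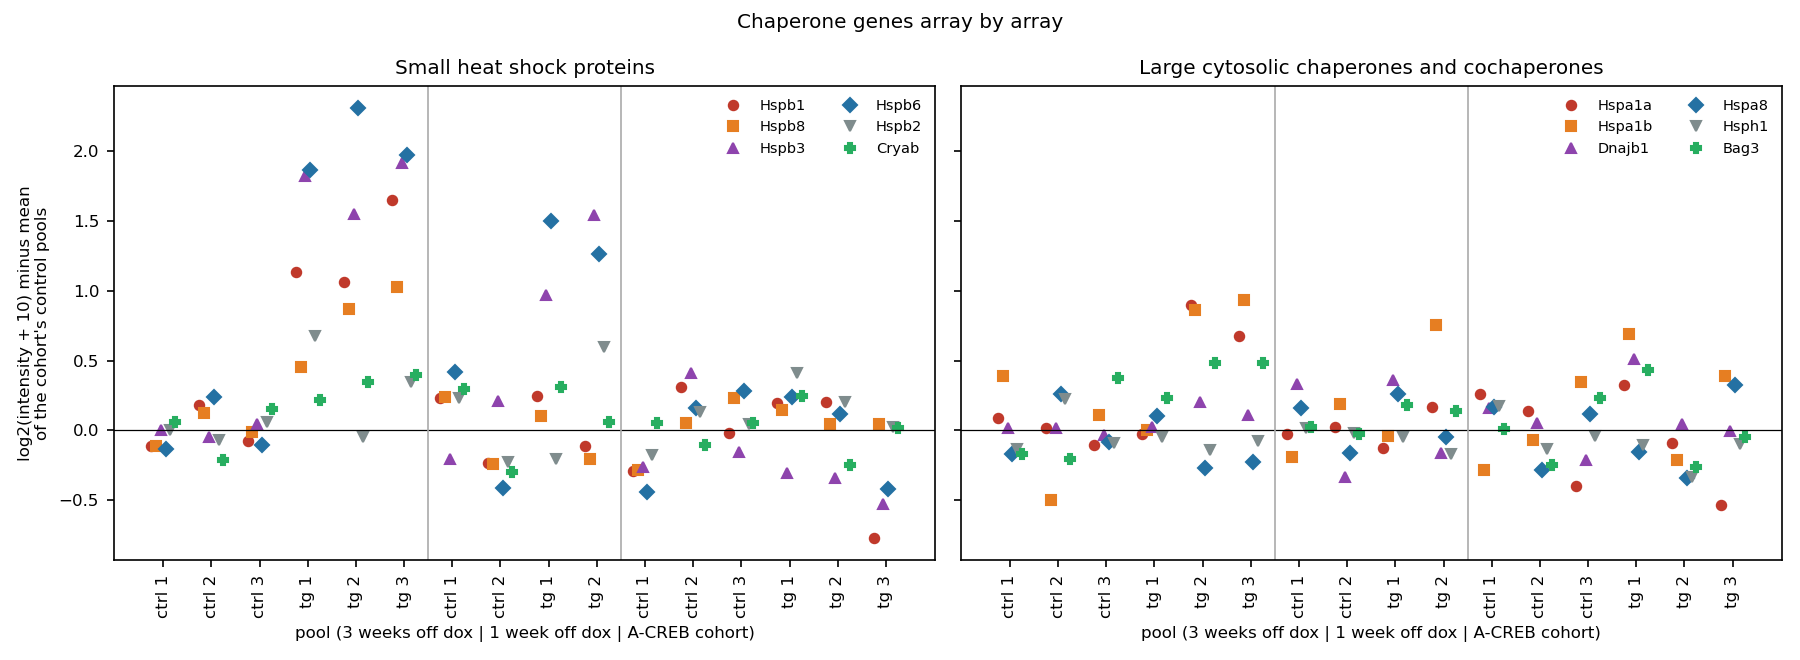
Log2(intensity + 10) of each pool minus the mean of its cohort's control pools, for 6 small heat shock proteins (left) and 6 large chaperones and cochaperones (right); ctrl is control, tg transgenic, and grey lines part the 3 cohorts. Hspb6, Hspb3 and Hspb1 stand above 1 in all 3 transgenic pools at 3 weeks off dox, while Hspa8, Hsph1 and Dnajb1 lie near 0 in those pools.

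No other gene of the wider cytosolic heat shock list passed. Of 30 genes listed, 26 were tested and 2 were called higher at 3 weeks off dox, Hspb3 and Hspb6, where 3.28% of all probe sets were. The list had a median of -0.02 against -0.01 over all probe sets and 12 of the 26 positive. Hspa8, the constitutive HSP70, read 22190, 29920 and 23560 in controls and 26930, 20760 and 21420 in VP16-CREB pools (-0.13, SE 0.21). Hsp90aa1, the inducible cytosolic HSP90, differed by -0.06 (SE 0.17) with overlapping pools. All 8 mitochondrial chaperones were tested and 0 were called by limma, with 0 at an unadjusted p under 0.05 (median 0.09), among them Hspd1 at -0.02 (SE 0.14) and Hspe1 at 0.14 (SE 0.15).

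In the ER the wider lists gave 0 calls by limma, where 3.93% of all probe sets were called in either direction. The 19 ER chaperone and folding genes had a median of 0.17 with 13 positive and 2 at an unadjusted p under 0.05, where 13.5% of all probe sets were. Calr, which encodes the lectin chaperone calreticulin, differed by 0.11 (SE 0.17) and Canx, its membrane-bound relative calnexin, by -0.05 (SE 0.15). The 14 tested genes of ER-associated degradation had a median of 0.20 with 13 positive and 4 at an unadjusted p under 0.05, all 4 of them higher. Their brightest members were Derl1 (0.14, SE 0.20) and Sel1l (-0.12, SE 0.18), which was the only gene of the 14 below 0. The 6 sensors and their proteases had a median of -0.17 with 2 positive and 2 at an unadjusted p under 0.05. The brightest were Mbtps1 at -0.15 (SE 0.13) and Mbtps2 at -0.19 (SE 0.18). The 2 at an unadjusted p under 0.05 went opposite ways. Eif2ak3, which encodes PERK, was higher (1.24-fold, limma unadjusted p = 0.0426) and Atf6 lower (0.78-fold, limma unadjusted p = 0.0367). Ern1, which encodes IRE1, was the other positive gene (1.18-fold, limma unadjusted p = 0.154). These sensors were named after their values were seen.

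Genes of the PERK, ATF4 and integrated stress response were the part of the ER stress programme with calls. Of 26 listed, 24 were tested, 3 were called higher and 0 lower (3.28% and 0.651% of all probe sets), and the median was 0.25 with 20 positive. Atf3, a stress-induced transcription factor that is also a CREB target and a marker of neuronal injury, read 13.59, 10.49 and 46.01 in controls and 467.8, 342.5 and 550.3 in VP16-CREB pools. It rose by 3.92 (SE 0.45; 15.2-fold on the intensity plus 10; limma adjusted p = 0.00014). The controls were dim, so the fold rests on the added 10.

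Nupr1, a stress-induced chromatin protein, read 162.6, 147.9 and 143 against 571.1, 403.9 and 476.1 and rose by 1.60 (SE 0.22, limma adjusted p = 0.000701). Ppp1r15a, which encodes GADD34, the phosphatase subunit that reverses the PERK signal, read 422.1, 358.7 and 380 against 720.5, 583.4 and 546.3. It rose by 0.65 (SE 0.16, adjusted p = 0.0322), a call that leaving out any 1 of the 6 pools ended (adjusted p = 0.0643, 0.129 and 0.11 without control replicates 1, 2 and 3 and 0.133, 0.0828 and 0.0569 without transgenic replicates 1, 2 and 3). Asns, the asparagine synthetase that ATF4 switches on, differed by 0.04 (SE 0.14), and Chac1, a target of the ATF4 and CHOP pair, by 0.01 (SE 0.19); Asns and Chac1 were chosen after their values were seen.

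Of the 10 oxidative stress genes, 2 were called higher at 3 weeks off dox (3.28% of all probe sets) and the median was 0.38, with 9 positive. Nfe2l2, which encodes the master regulator NRF2, rose by 1.13 (SE 0.14, limma adjusted p = 0.0003), from 519.3 to 608.1 in controls to 1069 to 1422. Mt2, a metallothionein, rose by 0.93 (SE 0.19, adjusted p = 0.0131), from 6997 to 9366 to 13350 to 19180. The Mt2 call was lost without control replicates 1 or 3 or transgenic replicate 1 (adjusted p = 0.0557, 0.07 and 0.0598).

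**Figure D5:**
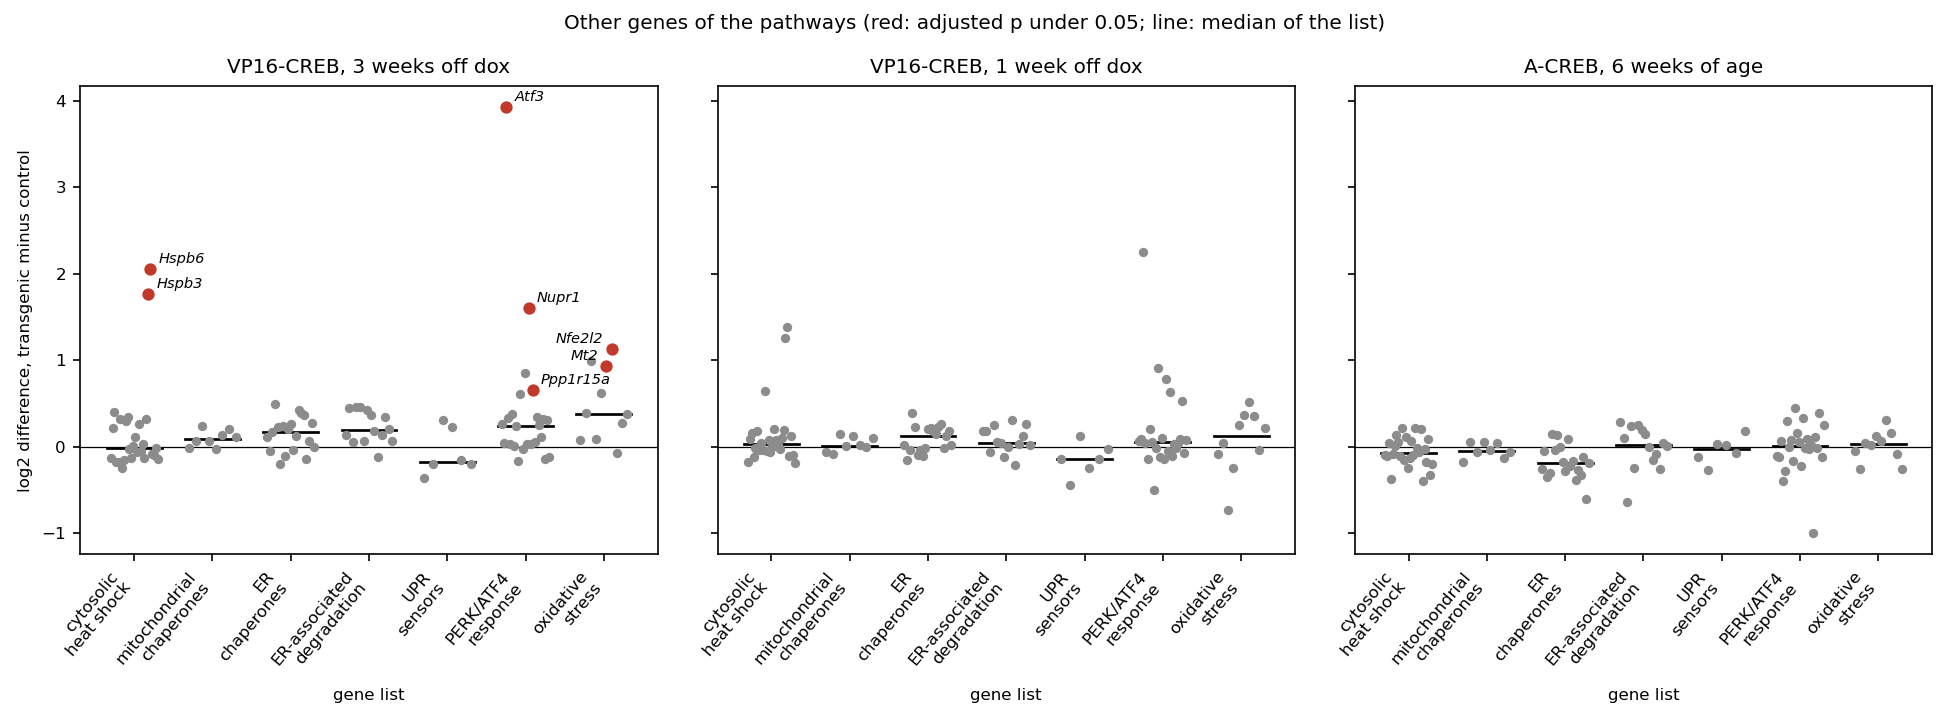
Log2 difference (transgenic minus control) of the tested genes of 7 lists in the 3 comparisons, 1 point per gene at its probe set of highest mean, with a line at the list's median and red for an adjusted p under 0.05. The 7 red points, all above 0, are in the panel at 3 weeks off dox: Hspb6, Hspb3, Atf3, Nupr1, Ppp1r15a, Nfe2l2 and Mt2.

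At 1 week off dox and in the A-CREB cohort 0 of the 107 genes tested on the 7 lists were called by limma, against 0.237% and 0% of all probe sets. An unadjusted p under 0.05 was seen in 9 and 4 of them, against 5.27% and 4.33% of all. At 1 week Atf3 read 65.4 and 73.01 in controls and 387.4 and 344.6 in VP16-CREB pools, which are far apart (2.25, SE 0.55, adjusted p = 0.188). Nupr1 (0.79, SE 0.27) and Ppp1r15a (0.64, SE 0.19) had like signs and did not pass. In the A-CREB cohort Atf3 differed by 0.07 (SE 0.45) and the contrast with VP16-CREB at 3 weeks was 3.86 (SE 0.64, adjusted p = 0.0107). As given above, Atf3 passed the filter on dim signal through transgenic pools only. List medians at 1 week were 0.03 for cytosolic, 0.01 for mitochondrial, 0.13 for ER chaperones, 0.05 for degradation, -0.14 for sensors, 0.05 for PERK and ATF4 and 0.13 for oxidative stress genes. In the A-CREB cohort they were -0.07, -0.04, -0.19, 0.03, -0.02, 0.01 and 0.03 in the same order, and 3 of the 19 ER chaperones were positive.

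Markers of glia moved with these results. At 3 weeks off dox all 10 microglial markers were called higher (median 2.22), where 3.28% of all probe sets were. Their summed intensity was 13183 to 13677 in controls and 52433 to 61266 in VP16-CREB pools, against 14075 to 16124 and 16380 to 22071 in the A-CREB cohort. At 1 week the sums were 13230 to 17872 and 23250 to 27581. Limma called 1 of the 10 higher there (0.218% of all probe sets), with 9 at an unadjusted p under 0.05 (5.27% of all) and a median of 0.94. In the A-CREB cohort 0 were called and 3 had an unadjusted p under 0.05 (4.33% of all). Of 8 astrocyte markers 2 were called higher at 3 weeks, Gfap (2.76, SE 0.24) and Aqp4 (1.13, SE 0.22), with sums of 59768 to 71218 and 74882 to 96199. At 1 week 1 of the 8 was called higher, with sums of 58681 to 60944 and 65192 to 80508. The A-CREB cohort had 0 astrocyte calls and sums of 56178 to 67878 and 60007 to 78458, which overlap. The part of glia in the rise of Hspb1, Hspb8, Hspa1b, Ddit3, Hspb3, Hspb6, Atf3, Nupr1, Nfe2l2 and Mt2 was not tested.

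Markers of dentate granule neurons, which are principal cells of the dentate gyrus, fell in the same pools. Of 5 markers 4 were called lower (median -1.56), where 0.651% of all probe sets were. Their sums were 3413.3 to 3693.5 in controls and 1132.8 to 1486.2 in VP16-CREB pools. At 1 week the sums were 4273.7 to 4482 in controls and 3182.3 to 3324.8 in VP16-CREB pools. In the A-CREB cohort they were 2588.1 to 4185.3 and 2231.8 to 2844.1, which overlap. Limma called 0 of the 5 in either, with 2 at an unadjusted p under 0.05 in each (5.27% and 4.33% of all probe sets). At 3 weeks general neuronal markers gave 0 calls of 7 by limma, with 2 at an unadjusted p under 0.05 (median -0.32). Their sums were 71259 to 101330 in controls and 58883 to 86464 in VP16-CREB pools. The oligodendrocyte (5 markers, median -0.03), endothelial (8 markers, 0.07) and choroid plexus (5 markers, -0.66) lists gave 0 calls, with 0 at an unadjusted p under 0.05. In pooled tissue RNA fewer cells of a type and less RNA per cell cannot be told apart. No marker was at 0 on any array, and the lowest value was 16.8 for Pecam1. Neuronal and dentate granule markers gave signal on all 16 arrays, as did oligodendrocyte, endothelial and choroid plexus markers. Presence of signal therefore does not identify the tissue.

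The members varied together only in part. Over the 16 arrays, centred by cohort, Hspb1 correlated with Hspb8 at 0.836 and with Ddit3 at 0.803, and Hspa5 with Ddit3 at 0.716, while Hspa5 and Hsp90b1 stood at -0.186. These r values are descriptions over arrays that share scaling and, in part, group. With each group centred as well, Hspb1 and Hspb8 stood at 0.567 and Hspa5 and Ddit3 at 0.193, while Dnajb1 and Hspa5 reached 0.886.

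Among genes outside the 10, those whose cohort-centred values over 16 arrays were most like Hspa1b (at 1452318_a_at) were Uap1 (r = 0.936), Hnrnpf (0.927), Chsy1 (0.907), Odc1 (0.896) and Pvr (0.884). None of these 5 probe sets was called at 3 weeks off dox. Most like Hspa5 were Heatr5a (0.921), Vamp5 (0.91), Atp1b2 (0.896), Ostf1 (0.874) and S100a16 (0.871), of which all but Heatr5a rose. Most like Ddit3 were Milr1 (0.937), Flywch2 (0.937), Plcd4 (0.923), Tnnc1 (0.923) and Gm13205 (0.911), all of which rose, with Milr1 at 2.65 and limma adjusted p = 0.000241. Centring by cohort leaves the VP16-CREB difference at 3 weeks in the values that chose these genes. Their rise there is therefore no separate result.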

How the data were processed

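The deposited values are linear intensities. They were made by the authors using MAS5 (per the submitters' processing notes, without a version); the genome build and annotation used are not given in the sources used here. Every array had a mean of 500 after 2% of values were trimmed at each end. No detection calls or array files were used. MAS5 subtracts a mismatch signal per probe pair, which makes dim values noisy.

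The 64 control probe sets were left out, a pseudocount of 10 was added and log2 taken of the deposited values. Probe sets above the median of all values (99.1) on at least 2 arrays were kept (27044 of 45037, 60.0%). Gene names came from the platform annotation, in which 34945 probe sets had 1 symbol, 932 several and 9160 none. Gene positions and promoters came from RefSeq on GRCm38.p6, and all 10 genes had a promoter.

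One limma fit (lmFit and eBayes; limma 3.58.1, R 4.3.3, data.table version 1.17.8) over all 16 arrays had a coefficient per group, 10 residual and 3.44 prior degrees of freedom. Tests were two-sided, with Benjamini-Hochberg adjustment over the 27044 probe sets of each comparison and calls below 0.05. Transgenic pools were set against littermate pools of their own cohort, and the differences of effects were tested as contrasts. Figures used Python 3.11.15 with matplotlib 3.10.9. The fit was tested on simulated data.

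Every probe set of the 10 genes is accounted for and none are averaged; that of highest mean stands for its gene. From each list the text names up to 4 called genes, or the 2 of highest mean where none was called, and, as nearest in pattern to Hspa1b, Hspa5 and Ddit3, the 5 genes of highest Pearson correlation over arrays centred by cohort. The members, lists and rules were chosen with earlier results of these data known. Alternatives were the pseudocount, the filter, quantile and median scaling, the arrays in the fit, the variance model, array weights, 1 probe set per gene, a block on replicate number, and leaving out arrays in turn.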

Additional observations from a re-analysis of the deposited data

Results flagged for a closer look

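None of the 24 probe sets of the 10 genes met a rule for a closer look, but 3 other genes of the pathway lists did, because the VP16-CREB effect at 3 weeks off dox differed from the A-CREB effect by limma's test of the difference over all probe sets. The difference of the log2 effects was 3.856 for Atf3 (adjusted p = 0.0107), 2.151 for Hspb3 (adjusted p = 0.00278) and 2.069 for Hspb6 (adjusted p = 0.0146). Each transgenic pool at 3 weeks was above its 3 littermate pools in all of them. The Atf3 probe set passed the filter on dim signal through transgenic pools only. In the A-CREB cohort the pools of Atf3 and Hspb6 overlapped their littermates, and those of Hspb3 lay below them. The 2 cohorts also differ in dox history, and their part in the difference was not tested.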

How the results depend on the processing

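The 6 member probe sets called at 3 weeks off dox became 2 with no filter on dim signal (more probe sets were tested), 11 with array weights, and 3 with 1 probe set per gene (fewer were tested). With 1 array left out (fewer pools) the count was 0 to 4. The 11 with array weights include the dim Ddit3 1443897_at (limma adjusted p = 0.0394), and the cause of the change with array weights was not tested. The labels number the pools alike in both groups, but not every same-numbered pair deviated together: the correlations were -0.164, -0.228 and 0.218 at 3 weeks, 0.153 for both pairs at 1 week, and -0.052, 0.407 and 0.265 in the A-CREB cohort. A pool correlated best with its own number in 1 of 3, 2 of 2 and 2 of 3 pairs. In a fit with a replicate block 2 member probe sets were called at 3 weeks, Hspb1 1422943_a_at (adjusted p = 0.0306) and Hspb8 1417013_at (0.0462). Those not called were Hspa1b 1427127_x_at and 1427126_at (0.0601 and 0.0842), Hspb1 1425964_x_at (0.112) and Ddit3 1417516_at (0.0659), and the Ppp1r15a call also ended (0.0589). The contrast of VP16-CREB at 3 weeks with A-CREB had 1 member call with array weights, Ddit3 (adjusted p = 0.0312). Under all other planned settings the counts were within 1.5 times of those given, and 0 for the 1 week and A-CREB comparisons. No called difference changed sign in any setting; of 393 refitted member differences at 3 weeks, 34 lost and 7 gained a call. Hspb3, Hspb6, Atf3, Nupr1 and Nfe2l2 kept their calls at 3 weeks in every setting, which was checked after the data were seen; the contrast with A-CREB for Hspb6 was lost with the replicate block (adjusted p = 0.0534). Dim signal limits the Ddit3 probe set 1443897_at and the Atf3 controls, and 2 or 3 pools per group limit every interval.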
